A study of Mus musculus with 4 samples.

Results

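The genes of major histocompatibility complex (MHC) antigen presentation and their MHC-like relatives were examined in brown fat (brown adipose tissue), a depot whose cells oxidise lipid and glucose for heat. Genes were taken when a probe set was annotated to them alone and their symbol began with H2-, the prefix of the mouse MHC, or stood on a list of genes for the light chain, peptide loading, the immunoproteasome, transactivators and MHC-like proteins. Where a gene had several such probe sets, the one with the highest mean over the 4 arrays stood for it. This gave 53 of the 22180 genes measured, and the listed genes Cd74 and Raet1e had no probe set annotated to them in the table used here. The samples came from male C57BL/6 mice aged 4 months on a chow diet. There were 2 wild-type (WT) samples and 2 samples labelled as Tsku knockout (KO), which lack the secreted proteoglycan tsukushi. Each sample had 1 whole-transcript array of its total RNA, read as log2 expression values.

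The labels name the samples of a genotype biological replicates without saying that they are separate mice. A p-value here therefore reflects the spread of these samples only, and that spread may be technical. Tsku had no probe set annotated to it, so no value checks the genotypes given in the labels. The background limit of an array was set at the 95th percentile of its 1405 probe sets for olfactory and vomeronasal receptors, and it lay between 0.63 and 0.81. Brown adipocyte markers were above it on all arrays for 9 of 10 genes. Skeletal muscle markers differed most between genotypes, by a median of -1.83 on the log2 scale over 10 genes, and their mean log2 level was 3.49 and 2.13 on the knockout arrays against 4.28 and 4.87 in wild type.

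MHC class I molecules are surface proteins made of a heavy chain and the light chain beta-2-microglobulin. They display peptides cut in the cytosol, carried into the endoplasmic reticulum and loaded there, and nearly all nucleated cells carry them. Class II molecules pair an alpha with a beta chain, display peptides taken up from outside, and in fat are carried mainly by macrophages, dendritic cells and B cells, with adipocytes able to express some. MHC-like proteins share the class I fold but bind lipids, vitamin metabolites, antibodies or transferrin receptor instead of classical peptides.

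Setting knockout against wild-type samples asks how loss of Tsku bears on these genes. With limma and Benjamini-Hochberg adjustment over all genes, 0 of the 53 genes had an adjusted p under 0.05, as did 0 of all 22180 (0% called). At an unadjusted p under 0.05 there were 4 of 53, against 5.56% of all genes. Of these Mill2 and H2-DMb1 read higher in the knockout, against 2.89% of all genes, and H2-Aa and H2-Ob lower, against 2.67%. The genotypes did not overlap in 18 of the 53, against 35.2% of all genes; 9 were higher in the knockout, against 19.4%, and 9 lower, against 15.8%. The shares of members were near those of the whole array. Members higher in the knockout numbered 25 and lower 28, with a median log2 difference of -0.03, beside 0.02 for all genes. The limma adjusted p of the members ran from 0.872 to 0.999.

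Of the 53 genes 31 lay above the background limit on all 4 arrays, 8 on some and 14 on none. The larger of the gaps between the arrays of a genotype exceeded the difference between genotypes in 38 of the 53 genes, or 71.7%, beside 77.4% of all genes. A member's log2 difference had a 95% interval with a median half-width of 0.52, and the intervals of 4 of the 53 genes left out 0.

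**Figure D1:**
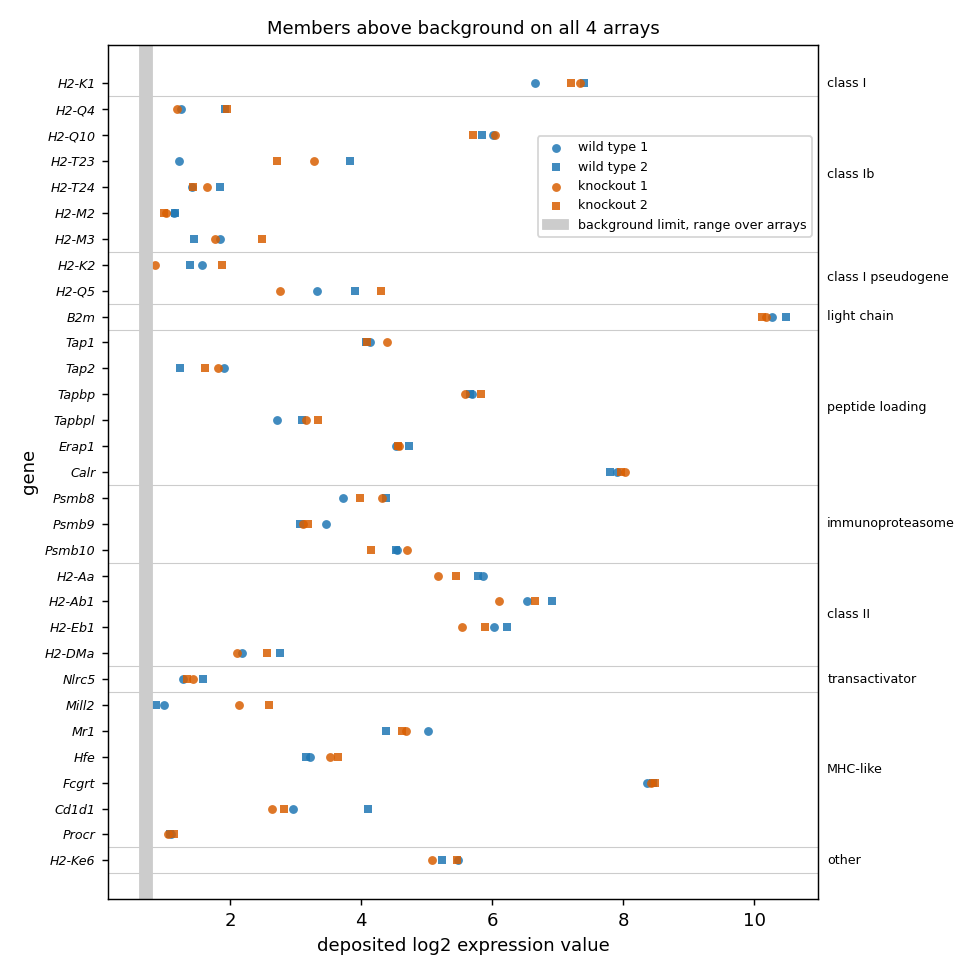
Deposited log2 expression value (horizontal axis) of each of the 31 genes above background on all 4 arrays (vertical axis), grouped by role. Blue points are the wild-type and orange points the knockout samples, and the grey band spans the background limits of 0.63 to 0.81. Mill2 has both knockout points, at 2.14 and 2.60, right of both wild-type points, and the points of H2-T23 spread from 1.21 to 3.84.

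Promoters are shown for 4 members picked from those that the RefSeq table holds (GRCm38.p6): the class II genes H2-Aa and H2-Eb1, the light chain gene B2m, and Mill2. Of these only H2-Aa and Mill2 had a limma unadjusted p under 0.05. Each sequence is the 250 bases before the annotated start, 5′ to 3′. Capitals mark matches on either strand to the Y box of class II promoters (CTGATTGG) or to the core of the interferon-stimulated response element (GAAANNGAA); the gamma-activated site (TTCNNNGAA) was searched as well and matched none of these 4 promoters. These motifs share no letters where they were found here.
H2-Aa, chr17:34287824-34288073, minus strand: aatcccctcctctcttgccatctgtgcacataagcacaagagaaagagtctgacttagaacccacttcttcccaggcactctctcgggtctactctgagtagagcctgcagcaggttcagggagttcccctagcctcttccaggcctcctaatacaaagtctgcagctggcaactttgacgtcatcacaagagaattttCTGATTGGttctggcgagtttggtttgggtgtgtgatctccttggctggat
H2-Eb1, chr17:34305617-34305866, plus strand: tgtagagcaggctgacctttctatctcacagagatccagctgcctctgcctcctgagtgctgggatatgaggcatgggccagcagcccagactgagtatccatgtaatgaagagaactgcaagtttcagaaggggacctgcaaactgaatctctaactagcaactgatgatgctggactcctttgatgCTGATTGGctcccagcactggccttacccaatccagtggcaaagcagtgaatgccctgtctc
B2m, chr2:122147437-122147686, plus strand: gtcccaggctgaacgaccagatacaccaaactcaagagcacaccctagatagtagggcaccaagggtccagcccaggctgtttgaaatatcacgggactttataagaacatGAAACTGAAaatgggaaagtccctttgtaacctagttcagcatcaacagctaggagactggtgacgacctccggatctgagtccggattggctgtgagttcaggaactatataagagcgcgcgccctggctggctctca
Mill2, chr7:18839716-18839965, plus strand: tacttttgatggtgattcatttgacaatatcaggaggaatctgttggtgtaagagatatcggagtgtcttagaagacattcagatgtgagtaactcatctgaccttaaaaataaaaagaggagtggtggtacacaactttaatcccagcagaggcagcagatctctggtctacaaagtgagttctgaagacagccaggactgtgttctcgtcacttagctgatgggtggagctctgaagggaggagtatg

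The Y box letters begin 51 bases before the start of H2-Aa and 62 bases before that of H2-Eb1. The response element of B2m begins 139 bases before its start. Mill2 has none of the 3 motifs in this window. Promoters were listed for 39 of the 53 genes, and 15 of the 39 (38.5%) held the Y box, beside 3.83% of 32851 promoters of all genes. Of those 15, 8 belong to the H2-M genes, which are close relatives of each other and share sequence. The response element core was found in 4 of the 39 (B2m, Erap1, H2-T23 and Hfe), beside 7.13% of all promoters. The gamma-activated site was found in 4 of the 39 (H2-DMb2, H2-M11, H2-M3 and Psmb8) beside 7.02%. For all 3 motifs the members were counted by gene and the background by promoter, so the shares are not in the same unit.

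Mill2 had the smallest p of the 53 genes. It encodes a class I-like surface protein that pairs with beta-2-microglobulin but does not need the peptide transporter, and its gene lies on chromosome 7, outside the MHC. Its log2 values were 0.99 and 0.88 in the wild-type samples and 2.14 and 2.60 in the knockout. Both knockout samples were high, and both wild-type samples lay just above the background limit. The log2 difference was 1.44 (SE 0.22, 95% interval 0.89 to 1.99, limma unadjusted p = 0.000703, adjusted p = 0.872), or 2.71-fold. Values this close to background are compressed by the array processing, which may understate the fold. Singling out the gene with the smallest p of the 53 may overstate it. Brown adipocyte markers were higher in the knockout in 10 of 10 genes, with a median log2 difference of 0.26 and with Prdm16 and Ucp1 at 0.999 and 0.55, while skeletal muscle markers were lower in 10 of 10, with a median of -1.83. The part of either tissue in the Mill2 value was not tested. Without single arrays the difference ran from 1.21 to 1.66, and the adjusted p over all alternatives ran from 0.224 to 0.927. The related gene Mill1 was under background on all 4 arrays, with values from -0.22 to 0.18.

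The genes next to Mill2 on chromosome 7 were measured as well. The 3 nearest measured genes on one side, Sycp1-ps1, Psg19 and Psg17, differed by -0.19, 0.17 and -0.37 on the log2 scale. On the other side Pglyrp1, Ccdc61 and Nova2 differed by -0.13, 0.23 and 0.21. Of these neighbours only Ccdc61 was above background on all 4 arrays, so the others give little measure of the locus.

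The class II alpha and beta chain genes above background were all lower in the knockout. H2-Aa, the alpha chain of the I-A molecule, read 5.86 and 5.78 in the wild-type samples and 5.17 and 5.45 in the knockout. The genotypes did not overlap. The log2 difference was -0.52 (SE 0.20, 95% interval -0.9997 to -0.03, limma unadjusted p = 0.0394, adjusted p = 0.872). Its partner H2-Ab1, the beta chain of I-A, read 6.53 and 6.91 in the wild-type samples and 6.10 and 6.65 in the knockout. Here knockout replicate 2 lay between the wild-type samples, and the log2 difference was -0.35 (SE 0.26, 95% interval -0.99 to 0.30).

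H2-Eb1, the beta chain of the I-E molecule, read 6.03 and 6.23 in the wild-type samples and 5.53 and 5.89 in the knockout. Both knockout samples were lower, by a mean of -0.42 on the log2 scale (SE 0.21, 95% interval -0.94 to 0.11, limma adjusted p = 0.873). Its alpha chain gene H2-Ea, a pseudogene in the RefSeq annotation of C57BL/6J, was under background on all arrays, with values from 0.03 to 0.48. In all of H2-Aa, H2-Ab1 and H2-Eb1 the lowest sample was knockout replicate 1. Without that sample the differences were -0.38, -0.07 and -0.24, and without knockout replicate 2 they were -0.66, -0.62 and -0.60. These 3 genes were grouped after their values had been seen.

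The same samples differed in markers of cells that carry class II. Of 11 macrophage markers 10 were lower in the knockout, beside 10510 of all 22180 genes, with -0.50 as the median log2 difference. At an unadjusted p under 0.05 there was 1 lower, against 2.67% of all genes. The mean log2 level of that list was 3.97 and 4.08 on the wild-type arrays, 3.25 in knockout replicate 1 and 3.89 in knockout replicate 2. Knockout replicate 1 was thus the lowest for the macrophage list, as for the class II chains. It was also the lowest for the endothelial markers, whose mean log2 levels were 5.41 and 5.23 in the wild-type samples and 5.003 and 5.55 in the knockout. Among the 31 members above background it was the lowest array for 11, where the wild-type arrays were lowest for 8 each and knockout replicate 2 for 4. This count was not made over all genes, so no background share stands beside it. All 11 macrophage markers were above background on all arrays.

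Dendritic cell markers had mean log2 levels of 1.48 and 1.55 in the wild-type samples and of 1.24 and 1.39 in the knockout, with 5 of 7 measured genes lower and a median difference of -0.28. B cell markers had mean log2 levels of 0.28 and 0.40 in the wild-type samples and 0.44 and 0.40 in the knockout. They went the other way, with 4 of 5 measured genes higher and a median difference of 0.19. Of the 5 B cell markers measured 0 were above background on all arrays, and Cd79a and Pax5 were above it on 2 arrays, Cd79b on 1, and Ms4a1 and Blk on none. In bulk tissue fewer cells of a type and less RNA per cell cannot be told apart. The part of these cell types in the class II values was not tested.

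**Figure D2:**
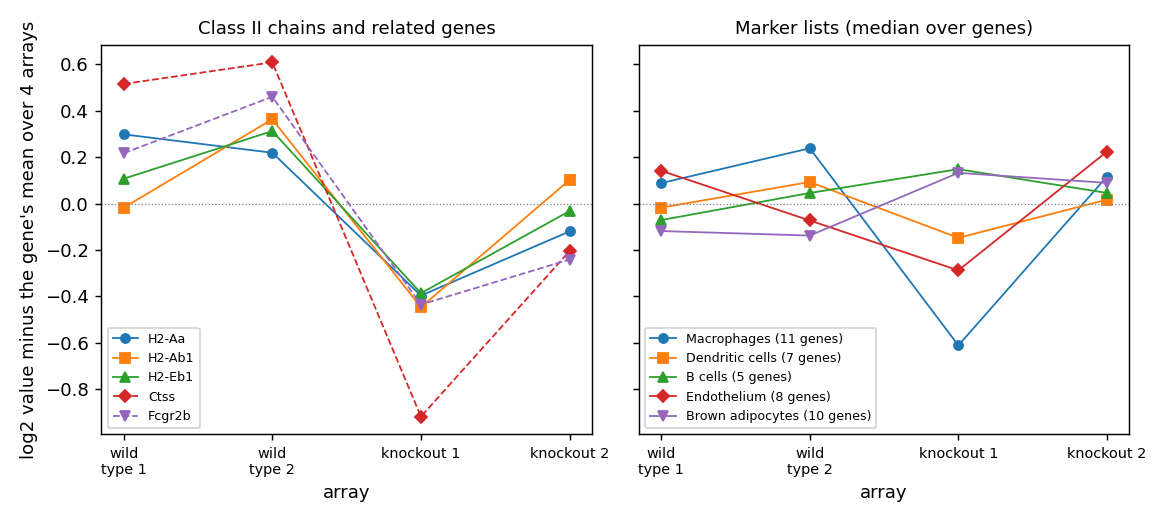
Log2 value minus the mean over the 4 arrays (vertical axis) on each array (horizontal axis), for 3 class II chain genes, Ctss and Fcgr2b (left) and as the median over the genes of 5 marker lists (right); lines only join the values of 1 gene or list. Knockout replicate 1 is the lowest for all 5 genes on the left and for the macrophage list, whose median lies at -0.61 there and at 0.12 in knockout replicate 2.

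Class II peptide loading uses the exchange factor H2-DM, which H2-O inhibits. H2-DMa, the DM alpha chain, read 2.19 and 2.76 in the wild-type samples and 2.11 and 2.57 in the knockout, a difference of -0.13 with overlapping genotypes. H2-DMb1, a DM beta chain, was under background on both wild-type arrays (0.16 and 0.06) and on knockout replicate 2 (0.52), and above it only on knockout replicate 1 (0.90). The fitted log2 difference was 0.60 (limma unadjusted p = 0.0290), and no fold is given because only 1 of the 4 arrays measured the gene above background. Its near-copy H2-DMb2 had values from -0.01 to 0.78, and probes may not separate the copies.

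H2-Ob, the O beta chain, read 0.80 and 0.81 in the wild-type samples and 0.37 and 0.21 in the knockout, under background on both knockout arrays. The fitted difference was -0.51 (limma unadjusted p = 0.0321). Both wild-type values lay under the background limit of knockout replicate 1 (0.811) and above that of knockout replicate 2 (0.698), and no fold is given for that reason. The partner chain H2-Oa was above background on 1 array, with values from 0.16 to 0.63. H2-Eb2 and H2-Pb were under background on all arrays. Ciita, the transactivator that turns on class II genes, read 1.09 and 1.02 in the wild-type samples and 0.80 and 0.91 in the knockout. The genotypes did not overlap, but knockout replicate 1 was under background and the log2 difference was -0.20 (SE 0.18).

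The classical class I heavy chain gene H2-K1 read 6.65 and 7.40 in the wild-type samples and 7.34 and 7.20 in the knockout. The gap of 0.75 between the wild-type samples was larger than the log2 difference between genotypes of 0.24 (SE 0.28), which turned to -0.13 without wild-type replicate 1. B2m, the light chain of all class I molecules and of several MHC-like proteins, read 10.26 and 10.48 in the wild-type samples and 10.17 and 10.12 in the knockout. Its genotypes did not overlap, and the log2 difference was -0.23 (SE 0.19, 95% interval -0.69 to 0.24, limma adjusted p = 0.902). H2-D1, the other classical heavy chain gene, had no probe set of its own here.

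Class Ib genes encode heavy chains with narrower roles. H2-T23, whose product Qa-1 presents leader peptides to natural killer cell receptors, read 1.21 and 3.84 in the wild-type samples and 3.28 and 2.72 in the knockout. Both knockout samples lay between the wild-type samples. The wild-type gap of 2.62 was exceeded by the largest within-genotype gap of only 0.0361% of all genes. The log2 difference was 0.47 (SE 0.80); leaving out wild-type replicate 2 gave 1.78, and leaving out wild-type replicate 1 gave -0.84.

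H2-M3, which presents bacterial N-formyl peptides, read 1.84 and 1.46 in the wild-type samples and 1.78 and 2.48 in the knockout, a difference of 0.48 (SE 0.29) with overlapping genotypes. Leaving out knockout replicate 2 gave 0.13, leaving out knockout replicate 1 gave 0.83, and leaving out wild-type replicate 2 gave 0.29. H2-Q10, known as a secreted class I chain of the liver, read 6.01 and 5.85 in the wild-type samples and 6.04 and 5.70 in the knockout. That was a difference of -0.06 (SE 0.21). The other probe set of H2-Q10 read lower, between 1.52 and 2.50, and differed by 0.42. Over 6 liver markers the median difference was 0.44, with 5 higher and 1 lower, and the values ran from -0.12 to 1.81, the latter for Alb. The part of liver tissue in the H2-Q10 value was not tested. H2-Q4, H2-T24 and H2-M2 differed by -0.01, -0.09 and -0.14.

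A set of H2-M genes is known from sensory neurons of the vomeronasal organ. Of H2-M1, H2-M9, H2-M11 and the 6 H2-M10 genes, 8 were under background on all 4 arrays, and H2-M9 was above it on 2. Wild-type replicate 1 read 1.64 for H2-M9 and the other arrays between 0.36 and 0.70. The class I pseudogenes H2-K2 and H2-Q5 were above background on all arrays. H2-Q5 read 3.32 and 3.90 in the wild-type samples and 2.77 and 4.30 in the knockout, and its knockout gap of 1.54 was exceeded by the largest gap of 0.794% of all genes. Probe sets of such near-identical genes may share signal with each other, and their values are uncertain for that reason.

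Peptides for class I are cut by proteasomes, the immunoproteasome among them, carried by the transporter Tap1 with Tap2 and trimmed by Erap1. They are loaded with the help of tapasin (Tapbp), its relative Tapbpl and calreticulin (Calr). All 9 of these genes, the immunoproteasome subunits Psmb8, Psmb9 and Psmb10 included, were above background on all arrays. The 6 loading genes had a median log2 difference of 0.14, with 5 higher and 1 lower, beside 0.02 for all genes. That median came to 0.06 without wild-type replicate 2, 0.08 without knockout replicate 1 and 0.21 without knockout replicate 2. Tapbpl read 2.72 and 3.09 in the wild-type samples and 3.15 and 3.34 in the knockout, a difference of 0.34 (SE 0.22) without overlap. Calr read 7.91 and 7.79 against 8.02 and 7.96, a difference of 0.14 (SE 0.18) without overlap.

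Tap1 read 4.13 and 4.07 in the wild-type samples and 4.40 and 4.09 in the knockout, with a log2 difference of 0.15 (SE 0.20) and overlapping genotypes. Tap2 and Erap1 also overlapped, with differences of 0.15 and -0.06. Tapbp differed by 0.03 on its brighter probe set and by -0.66 on its dimmer one, and the direction for this gene therefore depended on the probe set. Psmb8, an inducible catalytic subunit, read 3.72 and 4.38 in the wild-type samples and 4.32 and 3.98 in the knockout. Psmb9 and Psmb10, the other inducible subunits, differed by -0.11 and -0.12, and all 3 overlapped between genotypes. Nlrc5, the transactivator of class I genes, differed by -0.04 (SE 0.20), with values from 1.29 to 1.59.

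**Figure D3:**
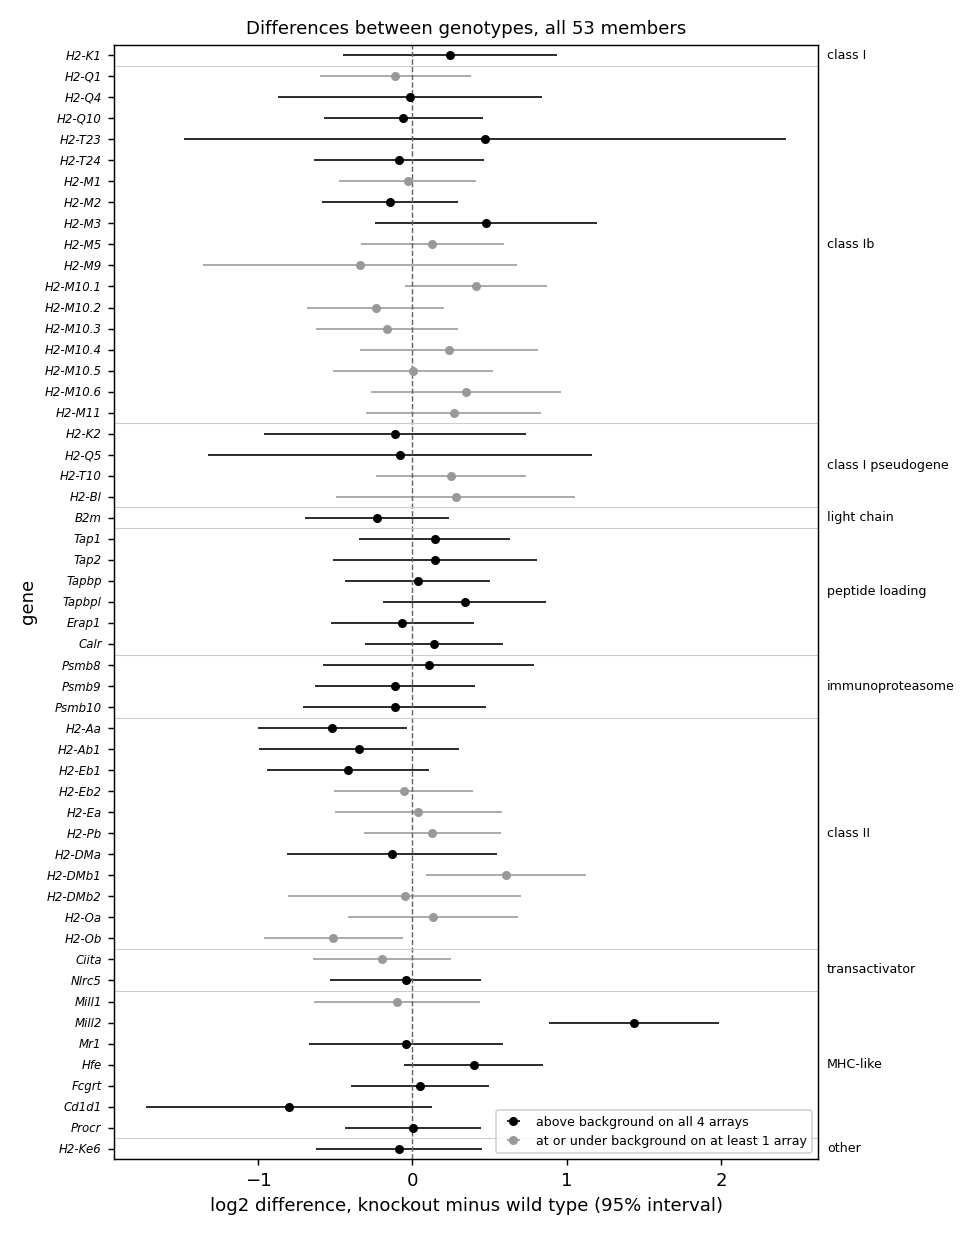
Log2 difference of knockout minus wild type with its 95% limma interval (horizontal axis) for all 53 genes (vertical axis), grouped by role; black marks genes above background on all 4 arrays and grey the others. Intervals of Mill2 and H2-DMb1 lie above 0 and those of H2-Aa and H2-Ob below 0, before adjustment, and H2-T23 has an interval from -1.48 to 2.42.

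The other MHC-like genes gave smaller differences than Mill2. Cd1d1, which presents lipids to natural killer T cells, read 2.97 and 4.10 in the wild-type samples and 2.64 and 2.83 in the knockout. The genotypes did not overlap, but wild-type replicate 2 stood apart, and the wild-type gap of 1.13 was larger than the log2 difference of -0.80 (SE 0.38, 95% interval -1.72 to 0.13, limma adjusted p = 0.872). With wild-type replicate 2 left out the difference was -0.23, and with wild-type replicate 1 left out it was -1.36. The adjoining paralog Cd1d2 was under background on all arrays.

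Hfe, which binds transferrin receptor and takes part in iron sensing, read 3.22 and 3.15 in the wild-type samples and 3.52 and 3.65 in the knockout. Both knockout samples were higher, by a log2 difference of 0.40 (SE 0.18, 95% interval -0.05 to 0.85, limma adjusted p = 0.872), and the value ran from 0.33 to 0.46 without single arrays. Tfrc, the transferrin receptor itself, read 6.96 and 6.63 against 6.16 and 6.38, a difference of -0.53 (SE 0.21, limma unadjusted p = 0.0470, adjusted p = 0.872). Tfr2, the second receptor that Hfe binds, was under background on all arrays.

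Fcgrt, the neonatal Fc receptor that recycles antibodies and albumin, read 8.36 and 8.45 in the wild-type samples and 8.42 and 8.49 in the knockout. These overlapped, with a log2 difference of 0.05 (SE 0.18, 95% interval -0.39 to 0.49). Mr1, which presents vitamin B metabolites to mucosal-associated T cells, read 5.01 and 4.38 against 4.68 and 4.62, a difference of -0.04 (SE 0.26). Procr, the endothelial protein C receptor, had values from 1.06 to 1.14 and a difference of 0.01. H2-Ke6 carries the H2- prefix by its place in the MHC but encodes a steroid dehydrogenase, and it differed by -0.09 (SE 0.22).

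On the genome 38 of the 53 genes lie on chromosome 17, with class II and peptide loading genes side by side. H2-Ob, H2-Ab1, H2-Aa and H2-Eb1 follow one another in that order among the members, with log2 differences of -0.51, -0.35, -0.52 and -0.42. The members beside them, Tap2 on one side and H2-Eb2 on the other, differed by 0.15 and -0.06. H2-Eb2 was under background on all arrays, and H2-Ob on both knockout arrays. For H2-Ab1 the genotypes overlapped, and its difference was -0.07 without knockout replicate 1. This run of genes was picked out after the values had been seen. Over all 38 the median was -0.02, with 18 higher and 20 lower.

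**Figure D4:**
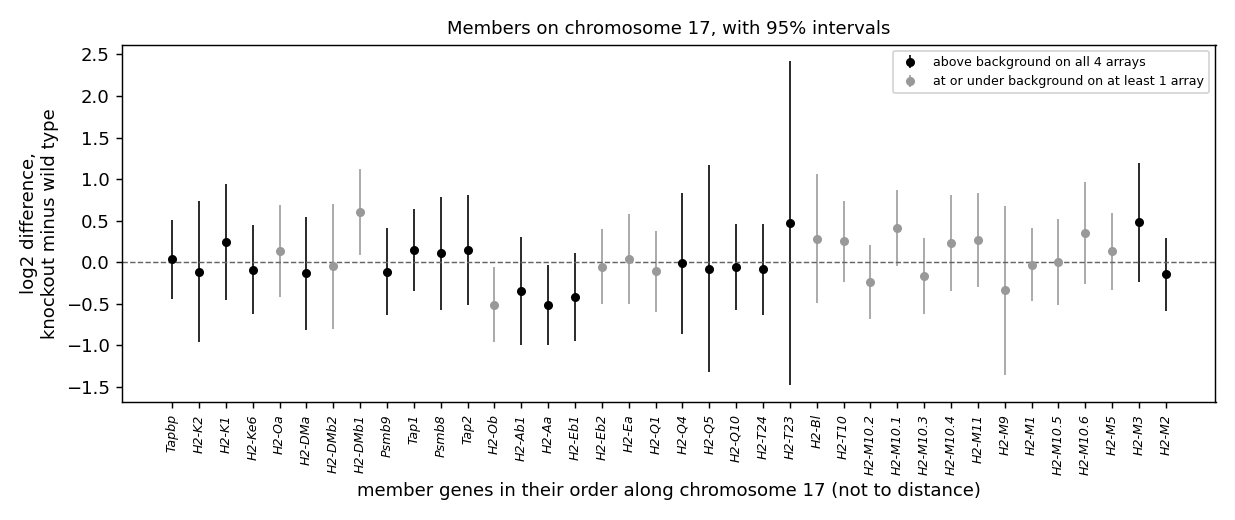
Log2 difference of knockout minus wild type with its 95% limma interval (vertical axis) for the 38 genes on chromosome 17, in gene order but not to distance (horizontal axis); black marks genes above background on all 4 arrays and grey the others. The neighbours H2-Ob, H2-Ab1, H2-Aa and H2-Eb1 lie between -0.35 and -0.52. The intervals of H2-Ob, H2-Aa and H2-DMb1 leave out 0, before adjustment, and those of H2-Ab1, H2-Eb1 and all other genes shown include it.

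A list of 50 other genes of antigen presentation was read beside the members, and 48 were measured. With limma 0 of them passed over all genes, and 3 had an unadjusted p under 0.05, all lower in the knockout, where 2.67% of all genes were called lower. Their median log2 difference was -0.06, with 20 higher and 28 lower. Ctss, the protease cathepsin S that clears the invariant chain from class II, read 5.92 and 6.01 in the wild-type samples and 4.48 and 5.20 in the knockout. Both knockout samples were lower, replicate 1 by more, and the log2 difference was -1.12 (SE 0.27, limma unadjusted p = 0.00645, adjusted p = 0.872). Without single arrays it ran from -1.48 to -0.77.

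Fcgr2b, the inhibitory Fc receptor of macrophages and B cells, read 5.04 and 5.28 in the wild-type samples and 4.38 and 4.58 in the knockout, with a log2 difference of -0.68 (SE 0.20, limma unadjusted p = 0.0149, adjusted p = 0.872). Cd86, a costimulatory ligand of antigen-presenting cells, read 0.89 and 1.53 against 0.72 and 0.77, with knockout replicate 1 under background. Its difference of -0.47 came to -0.14 when wild-type replicate 2 was left out and to -0.79 when replicate 1 was. Macrophage markers had a median of -0.50 in the same samples, and their part in the Ctss, Fcgr2b and Cd86 values was not tested. The class II regulators Rfx5, Rfxap and Rfxank differed by -0.13, -0.34 and 0.33, and the interferon receptor genes Ifngr1, Ifngr2, Ifnar1 and Ifnar2 by -0.07, -0.04, -0.07 and 0.17.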

How the data were processed

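Total RNA of 4 brown fat samples was hybridised to whole-transcript arrays. The authors deposited 1 table of normalized log2 values for 41345 probe sets. RMA, oligo and limma are named, without roles or versions, in the submitters' processing notes, and the genome build is not given in the sources used here. Base 2 is assumed for the logarithm, as in RMA output. Levels sit below the usual RMA range for a reason not given in the sources used here, and whether this bears on differences was not tested. RMA compresses dim probe sets.

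Platform annotation gave 1 symbol to 23521 probe sets, several to 1814 and none to 16010. The brightest probe set of each gene was kept (22180 genes), and 52 of the 53 members matched the RefSeq gene table by Entrez ID. Genotypes were compared in limma 3.58.1 (R 4.3.3), two-sided, without filter or block, at an adjusted p under 0.05, with 2 residual and 3.96 prior degrees of freedom. With 2 samples a genotype an exact permutation test cannot go below p = 0.333. The script was tested on simulated data. All members could be named. Full statistics were planned for those with an unadjusted p under 0.05 and for a fixed set of genes. For some of these only a part of the statistics is printed. The 4 genes with the smallest p were named from the list of other antigen presentation genes. The members and lists were chosen with earlier results of these data known. Motifs, neighbours and the background limit were chosen after the values were seen. The 15 alternatives covered filters, probe set choice, normalization, variance models, a replicate block, array weights and each sample left out.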

Additional observations from a re-analysis of the deposited data

How the results depend on the processing

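Under the 15 alternatives 0 of the 53 members and 0 of the 48 other antigen presentation genes passed an adjusted p of 0.05 in limma. Genes past the threshold over the whole array numbered 1 with the mean trend, 1 with the replicate block and 0 to 15 without single arrays (15 without wild-type replicate 1, 2 without wild-type replicate 2). Members with an unadjusted p under 0.05 numbered 1 with the filter at the median, which tests 33 members, and 3 to 5 without single arrays. The members' median log2 difference was 0.0035 to 0.054 without single arrays, against -0.03 with all, so its sign was not stable. That of the other antigen presentation genes was -0.13 to 0.032 without single arrays, against -0.06. The median over the 11 class II genes was -0.06, -0.38 with the filter at the median, which removes the dim ones, -0.36 without knockout replicate 2, -0.19 and -0.10 without wild-type replicates 1 and 2, and 0.03 without knockout replicate 1, so this sign was not stable either. Mill2, H2-Aa, H2-Ab1, H2-Eb1, Hfe and Cd1d1 kept their sign under every alternative, while H2-T23 and H2-K1 changed it without wild-type replicate 1. In all of the former but H2-Ab1 the genotypes did not overlap, and leaving out 1 sample cannot turn the sign of such a gene. Their kept sign is therefore no measure of stability. Samples with the same replicate number did not deviate together (r = -0.07 across genes), so the numbers were not taken as a pairing; the replicate block gave 3 members at an unadjusted p under 0.05. Few samples, and signals near background for 22 members, limit what can be seen.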

Other observations

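Several probe sets are annotated to more than 1 gene of the H2 family and could not be given to a gene, so they stand outside the comparison. The probe set annotated to H2-T22 and H2-T9 together, class Ib genes whose products bind gamma-delta T cell receptors, read 6.18 and 6.68 in the wild-type samples and 5.40 and 5.78 in the knockout. The genotypes did not overlap, and in a limma fit of all 41345 probe sets the log2 difference was -0.84 (SE 0.28, unadjusted p = 0.0327, adjusted p = 0.955). The probe set annotated to H2-Q6 and H2-Q8 read 5.25 and 5.23 in the wild-type samples and 3.81 and 5.24 in the knockout, with knockout replicate 1 apart from the other 3. The brighter of the 2 probe sets for H2-Q7, H2-Q8 and H2-Q9 read 6.40 and 6.94 in the wild-type samples and 6.90 and 6.94 in the knockout, and the dimmer one 1.01 and 2.25 against 2.68 and 0.36. The probe set annotated to H2-Q2 and H2-D1 was under background on all 4 arrays, with values from 0.36 to 0.64.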
